A study of Mus musculus with 7 samples.

Results

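Known target genes of the progesterone receptor (PGR) in granulosa cells, *Ctsl*, *Snap25*, *Prkg2*, *Adcyap1*, *Cxcr4* and *Rgcc*, were followed in ovarian tissue depleted of granulosa cells. These 6 genes were chosen by name, as genes known to depend on PGR in the granulosa cells of ovulating follicles, out of 52230 genes for which reads were summed. All 6 were among the 19233 genes that passed the filter on low counts. Female PGR -/- mice (KO) of the PRKO strain, which carry the Pgrtm1Bwo allele, were compared with PGR +/+ littermates (WT). All mice were immature, with an age of 21 to 27 days in the protocol and an upper limit of 25 days in the design text. Every mouse, WT and KO, received 5 IU of PMSG and, 44 h later, 5 IU of the ovulatory stimulus hCG, and ovaries were collected 8 h post-hCG. Tissue of 3 mice was pooled for each library. There were 4 WT libraries (replicates 1 to 4) and 3 KO libraries (replicates 2 to 4), with 47.4 to 63.4 M reads each. The Pgrtm1Bwo allele is carried in every cell of the body, so the loss of PGR was not limited to 1 ovarian cell type.

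PGR is a nuclear receptor that the LH surge, here replaced by hCG, switches on for a few hours in the granulosa cells of the follicles about to ovulate. Without it the follicle does not rupture, although the oocyte resumes meiosis and the cumulus expands. Its target genes include proteases, components of vesicle release, signalling peptides and kinases. The *Cxcr4* gene encodes the chemokine receptor for CXCL12, and *Snap25* encodes a membrane-anchored SNARE protein that drives fusion of secretory vesicles. cGMP-dependent protein kinase II is the product of *Prkg2*, and the lysosomal cysteine protease cathepsin L that of *Ctsl*. *Adcyap1* encodes the neuropeptide PACAP, and *Rgcc* a regulator of the cell cycle that responds to complement.

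The upstream sequences of *Cxcr4*, *Snap25* and *Prkg2*, the genes with the largest differences between genotypes, are shown to let the reader see how unlike they are. Each line holds the 250 bases before the start of the canonical transcript in GRCm39, read 5′ to 3′ on the strand of the gene. Capitals mark the matches to a searched motif on either strand. The windows lie at chr1:128520045-128520294 (minus strand) for *Cxcr4*, chr2:136554966-136555215 (plus strand) for *Snap25* and chr5:99185211-99185460 (minus strand) for *Prkg2*.
Cxcr4: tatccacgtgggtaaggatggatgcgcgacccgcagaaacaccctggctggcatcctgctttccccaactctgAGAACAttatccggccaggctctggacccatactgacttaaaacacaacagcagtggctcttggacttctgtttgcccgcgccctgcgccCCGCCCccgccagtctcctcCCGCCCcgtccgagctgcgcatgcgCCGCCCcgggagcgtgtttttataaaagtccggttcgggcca
Snap25: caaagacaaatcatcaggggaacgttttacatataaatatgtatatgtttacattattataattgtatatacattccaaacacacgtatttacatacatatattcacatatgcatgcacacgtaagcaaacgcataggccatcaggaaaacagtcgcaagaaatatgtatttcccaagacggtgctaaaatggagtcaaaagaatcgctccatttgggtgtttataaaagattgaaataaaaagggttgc
Prkg2: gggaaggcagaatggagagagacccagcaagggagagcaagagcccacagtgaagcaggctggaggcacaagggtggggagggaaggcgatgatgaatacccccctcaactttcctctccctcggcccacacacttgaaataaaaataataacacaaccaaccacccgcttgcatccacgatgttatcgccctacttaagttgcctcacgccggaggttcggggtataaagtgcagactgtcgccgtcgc

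The motifs searched were the GC box (GGGCGG), the half-site of the progesterone response element (AGAACA), the full, palindromic progesterone response element, the AP-1 site (TGANTCA) and the half-site of the cAMP response element (TGACG). A full element can hold a half-site within it. The *Cxcr4* window had a G and C content of 61.6% and held 3 GC boxes, the nearest ending 37 bases before the start, and 1 AGAACA half-site that begins 177 bases before it. Among the windows of 21770 protein-coding genes, 36.3% held a GC box and 14.3% an AGAACA half-site. The *Snap25* window was rich in A and T, with a G and C content of 33.2% against a median of 53.2% over all windows, and held none of the 5 motifs. None was in the *Prkg2* window either, at 55.2%. Of the other genes, *Rgcc* had 5 GC boxes and 1 TGACG, *Ctsl* 2 GC boxes and 2 TGACG, of which 18% of all windows held at least 1, and *Adcyap1* 1 TGACG. The AP-1 site, in 6.17% of all windows, and the full element, in 0.0276%, were in none of the 6. Such matches describe the letters of these windows and not binding.

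*Pgr* itself was examined first as a check of the labels. On the CPM scale (reads scaled to a common library size by TMM, counts per M) *Pgr* was at 19.5, 31.0, 21.5 and 16.8 in WT replicates 1 to 4 and at 6.13, 6.52 and 7.56 in KO replicates 2 to 4. Every KO library was below every WT library, and the KO mean was 30.3% of the WT mean. KO against WT gave a log2 fold change of -1.72 (SE 0.202), with an adjusted p of 0.0544 in edgeR's quasi-likelihood test with Benjamini-Hochberg adjustment. DESeq2 gave an adjusted p of 3.77e-15, and edgeR passed 0.05 without WT replicate 2 (0.0238) or without WT replicate 4 (0.0417). Reads from the locus thus remained in the KO libraries.

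A gene was called where the adjusted p was at most 0.05 and the log2 fold change at least 0.5 in either direction. By this rule edgeR called 0 of the 6 target genes, beside 2 of all 19233 genes (0.0104%, with 0.0052% lower in KO), and limma-voom also called 0, beside 0.0104% of all genes. DESeq2 called 2 of the 6, *Cxcr4* and *Snap25*, both lower in KO, beside 143 of 17378 genes (0.823%) in either direction and 0.506% lower in KO. At an unadjusted p under 0.05 in edgeR, which 8.94% of all genes reached, the same 2 genes were lower in KO, beside 5.1% of all genes, and none was higher, beside 3.84%. In these 2 genes every KO library also lay below every WT library, which held for 5.12% of all genes, and in the other 4 the genotypes overlapped. Fitted log2 fold changes were negative for 5 of the 6 genes, with a median of -0.45, while the median over all genes was 0.0 and the median size of a change was 0.1. Since the genes were chosen with results known, these counts are a description.

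**Figure D1:**
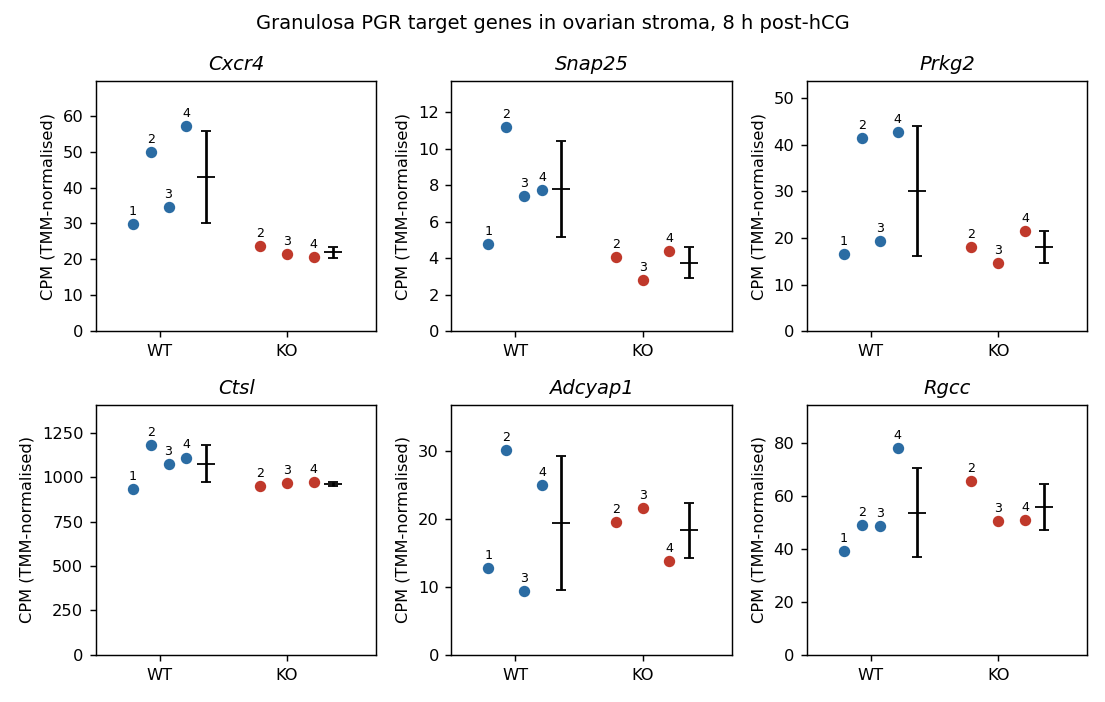
Level of the 6 granulosa PGR target genes in each library, in CPM (linear axes from 0), with numbers giving the replicate and black bars the mean ± SD of 4 WT and 3 KO libraries. *Cxcr4* and *Snap25* show no overlap between genotypes. In *Cxcr4*, as in *Prkg2* and *Adcyap1*, WT replicates 2 and 4 stand above WT replicates 1 and 3.

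*Cxcr4* was at 51.2% of the WT level in the tissue of KO mice, with no overlap between libraries. Its CPM was 29.9, 50.0, 34.6 and 57.2 in WT replicates 1 to 4 and 23.7, 21.4 and 20.7 in KO replicates 2 to 4. The WT libraries were spread widely and the KO libraries closely, and the lowest WT library was above the highest KO library. Mean CPM was 42.9 ± 12.8 over the WT libraries (SD, n = 4) against 22.0 ± 1.58 over the KO libraries (SD, n = 3). KO differed from WT by -0.97 (SE 0.209) on the log2 scale, with a 95% interval from -1.44 to -0.49. The adjusted p was 0.236 in edgeR and 0.31 in limma-voom but 0.000425 in DESeq2, so the call rests on the tool. These values rest on 1029 to 3558 reads per library, and leaving out 1 library at a time moved the log2 fold change between -1.10 and -0.79. In bulk tissue, fewer cells that express a gene and less RNA of it per cell cannot be told apart.

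Both annotated transcripts of *Cxcr4* (chr1:128515936-128520044, minus strand, GRCm39) were lower in KO. The longer one, *Cxcr4*-201, made up 78.3% of the gene's TPM (transcripts per M, a scale corrected for length) on average in WT and 83.7% in KO. Its TPM was 22.8 to 47.2 over the WT libraries and 18.2 to 20.0 over the KO libraries. *Cxcr4*-202 ranged from 5.23 to 12.9 TPM in WT and from 3.17 to 4.41 in KO. Neither transcript overlapped between genotypes, and no test was run on single transcripts.

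*Cxcl12*, the ligand of CXCR4, was higher in KO. Its CPM was 223, 181, 203 and 185 in the WT libraries and 274, 256 and 229 in the KO libraries, and every KO library was above every WT library, as in 3.93% of all genes. The log2 fold change was 0.35 (SE 0.0908), with an adjusted p of 0.314 in edgeR. DESeq2 gave 0.031, but the size of the difference was under the limit of 0.5. *Ackr3*, the atypical receptor that takes up CXCL12, was at 31.2 to 39.4 CPM over all libraries, with a log2 fold change of -0.10 (95% interval from -0.29 to 0.09). Of the 16 genes listed for the CXCL12 axis, all tested, 0 were called by edgeR or DESeq2. At an unadjusted p under 0.05 in edgeR, 2 were lower in KO, *Arrb1* (β-arrestin 1, log2 fold change -0.22) and *Gnai1* (an inhibitory G protein subunit, -0.23), and 2 were higher, *Cxcl12* and *Rgs16* (a regulator of G protein signalling, 0.53). The median of this list was 0.04.

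CXCR4 is also abundant on leukocytes, so their markers were read beside it. None of the 11 leukocyte markers tested had an unadjusted p under 0.05 in edgeR, and their summed level was 57.7 to 65.4 TPM in WT and 55.1 to 70.3 TPM in KO, with *Cd68*, *Laptm5* and *Csf1r* the most abundant. The leukocyte sums overlapped between genotypes. Endothelial cells also carry CXCR4. Of 9 endothelial markers 8 had negative log2 fold changes, with a median of -0.12. At this p 3 were lower in KO (*Cdh5*, *Flt1* and *Tek*, log2 fold changes from -0.22 to -0.20), beside 5.1% of all genes. In these 3 every KO library was below every WT library, as in 5.12% of all genes. The summed endothelial level was 549.7 to 642.1 TPM in WT and 571.3 to 623.2 TPM in KO. The part of leukocytes and endothelial cells in the *Cxcr4* difference was not tested.

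*Snap25* was the gene with the largest difference. Its CPM was 4.80, 11.2, 7.41 and 7.73 in WT replicates 1 to 4 and 4.06, 2.81 and 4.42 in KO replicates 2 to 4. WT replicate 1 was close to the highest KO library, and WT replicate 2 was far above the rest. Mean CPM was 7.79 ± 2.63 for WT (SD, n = 4) against 3.77 ± 0.843 for KO (SD, n = 3), or 48.3% of WT. This is a log2 fold change of -1.04 (SE 0.273), with a 95% interval from -1.66 to -0.43. The adjusted p was 0.314 in edgeR and 0.0077 in DESeq2, so again the tool decided the call. Only 135 to 564 reads per library stand behind these values, the fewest among the 6 genes. With 1 library left out the log2 fold change was between -1.21 and -0.82.

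The main transcript, *Snap25*-201, carried 77.3% of the gene's TPM in WT and 73.7% in KO, and *Snap25*-202 carried 21.4% and 24.7%. The proportions of the *Snap25* transcripts were thus close in both genotypes, while the levels of *Snap25*-201 (3.06 to 7.42 TPM in WT and 1.83 to 2.95 in KO) did not overlap. Those of *Snap25*-202 did, at 0.621 to 1.96 TPM in WT and 0.556 to 1.07 in KO. *Snap23*, the relative of *Snap25* that serves exocytosis in most cells outside the nervous system, was at 43.5 to 45.7 CPM in WT and 41.1 to 46.9 CPM in KO. Its log2 fold change was -0.03, with a 95% interval from -0.16 to 0.11. Of 26 genes listed for the SNARE exocytosis machinery 25 were tested, and 0 were called by edgeR or DESeq2. *Unc13d*, which primes granules for release in haematopoietic cells, had the lowest p of the list and was the only gene to pass 0.05 before adjustment (log2 fold change -1.14, adjusted p = 0.386 in edgeR). WT replicate 4, at 59.1 CPM, stood apart from the other WT libraries (19.8 to 29.0), and the log2 fold change of *Unc13d* was -0.66 without it and -0.74 with length offsets. The next by p were *Syt1*, a vesicle calcium sensor (-0.40, or -0.20 without KO replicate 2), and *Vamp3*, a vesicle SNARE (-0.09). The median of the list was -0.02.

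SNAP25 is best known from neurons, and the ovary is innervated, so markers of nerve fibres were read beside it. Of 11 such markers tested 10 were higher in KO, while 50.3% of all genes were lower. *Tubb3*, *Th* and *Uchl1* were higher at an unadjusted p under 0.05 in edgeR, as were 3.84% of all genes. The log2 fold changes of these 3 were 0.44, 0.63 and 0.35. Among the nerve markers DESeq2 called only *Th* (adjusted p = 0.0454), beside 0.823% of all genes in either direction. *Elavl4* (0.04), *Nefl* (0.06), *Syp* (0.07) and *Gap43* (0.03) were near 0, and *Nefm* was at -0.09. The sums of the list were led by *Uchl1* and *Tubb3*. The nerve markers summed to 90.8 to 119.2 TPM in WT and 133.6 to 154.3 TPM in KO, where *Snap25* was lower. The most abundant of these markers, *Uchl1*, is also strongly expressed in oocytes. All 9 oocyte markers were higher in KO, 4 of them at this p, and their sums were 249.6 to 351.4 TPM in WT and 322.8 to 446.5 TPM in KO. The highest sum was that of KO replicate 3, and KO replicates 2 (338 TPM) and 4 (322.8 TPM) were below WT replicate 3 (351.4 TPM). The part of these cells in the *Snap25* difference was not tested.

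**Figure D2:**
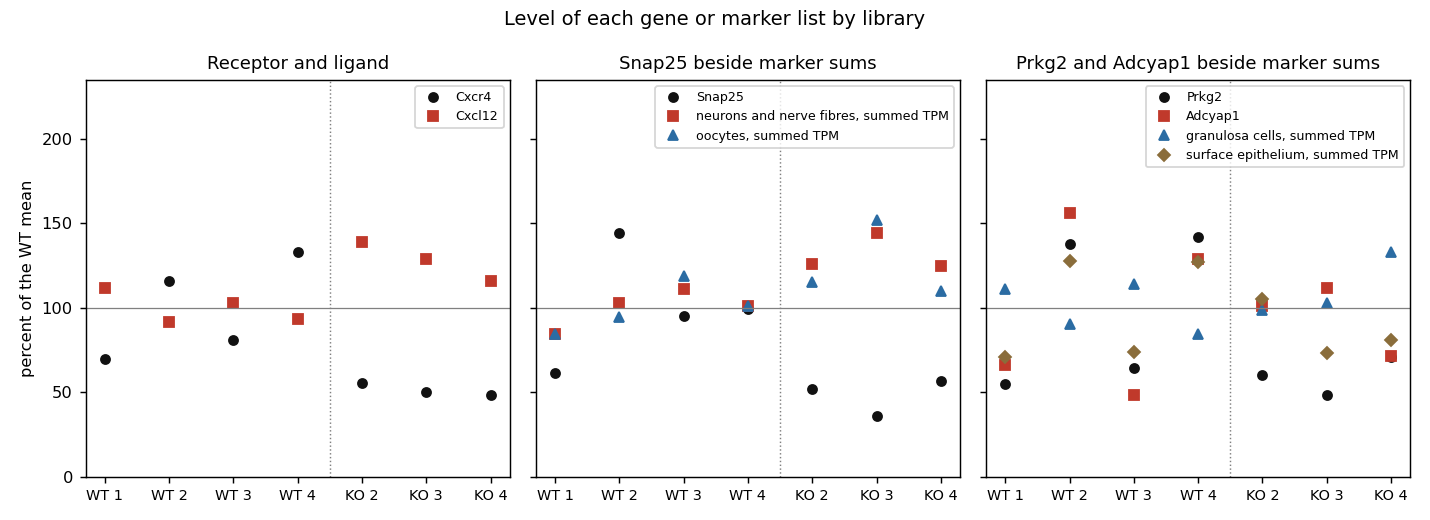
Level in each library as a percent of the WT mean (linear axis), for *Cxcr4* and its ligand *Cxcl12* in CPM, for *Snap25* beside the summed TPM of nerve and oocyte markers, and for *Prkg2* and *Adcyap1* beside granulosa and surface epithelium markers. *Cxcr4* was at 48.3% to 55.3% in KO where *Cxcl12* was at 116% to 139%. *Snap25* was at 36.1% to 56.7% where the summed nerve markers, led by *Uchl1* and *Tubb3*, were at 125% to 144%.

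*Prkg2* was lower in KO on average, but the genotypes overlapped. Its CPM was 16.6, 41.5, 19.4 and 42.7 in WT replicates 1 to 4 and 18.1, 14.6 and 21.4 in KO replicates 2 to 4. WT replicates 1 and 3 were within the range of the KO libraries, and WT replicates 2 and 4 were above every other library. Mean CPM was 30.0 ± 14.0 for WT (SD, n = 4) against 18.01 ± 3.40 for KO (SD, n = 3), which is 60.0% of WT. Its log2 fold change was -0.74 (SE 0.339), and the 95% interval ran from -1.50 to 0.03 (adjusted p = 0.569 in edgeR). A change of at least this size was fitted for 2.71% of all genes. Without WT replicate 2 the log2 fold change was -0.54, and without WT replicate 4 it was -0.51.

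The 2 main transcripts of *Prkg2* (chr5:99076863-99185470, minus strand, GRCm39) held similar shares of its TPM in both genotypes, 56.9% and 58.6% for *Prkg2*-204 and 41.8% and 40.8% for *Prkg2*-203. The upstream window shown above is that of *Prkg2*-203, the canonical transcript but the lesser of the 2 in this tissue. *Prkg1*, the other cGMP-dependent kinase and the main one of smooth muscle, was at 8.34 to 11.2 CPM in WT and 5.47 to 8.21 CPM in KO. Its log2 fold change was -0.40 (SE 0.166, unadjusted p = 0.0391, adjusted p = 0.529 in edgeR), and without KO replicate 2 it was -0.23 (unadjusted p = 0.136 in edgeR). Markers of smooth muscle and pericytes were lower as well, 5 of 8 at an unadjusted p under 0.05 in edgeR, beside 5.1% of all genes. DESeq2 called 2 of the 8, *Cnn1* (log2 fold change -0.69, adjusted p = 0.00164) and *Des* (-0.78, adjusted p = 0.000241), beside 0.506% of all genes lower in KO. The sums of these markers were 1507 to 1789 TPM in WT and 1105 to 1459 TPM in KO, and their part in the *Prkg1* difference was not tested. *Nppc* and *Npr2*, the natriuretic peptide and the receptor that make cGMP in the follicle, had log2 fold changes of 0.09 (95% interval from -0.43 to 0.62) and 0.07 (from -0.20 to 0.34).

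Of 21 genes listed for cGMP signalling 19 were tested, and edgeR called 0. DESeq2 called 1, *Nos1* (neuronal nitric oxide synthase), which was higher in KO at 7.27 ± 0.234 CPM (SD, n = 3) against 5.08 ± 0.653 (SD, n = 4). Its log2 fold change was 0.52, and the adjusted p was 0.0134 in DESeq2 and 0.253 in edgeR. *Irag1*, a substrate of the cGMP kinase I in smooth muscle, was lower (log2 fold change -0.34, unadjusted p = 0.00973, adjusted p = 0.37 in edgeR). The median of this list was -0.01.

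*Ctsl* was by far the most abundant of the 6 genes and differed least in relative terms among those that were lower at every setting. Its CPM was 935, 1181, 1077 and 1111 in the WT libraries and 950, 969 and 972 in the KO libraries. The KO libraries lay close together, below WT replicates 2, 3 and 4 and above WT replicate 1. Mean CPM was 1076 ± 104 for WT (SD, n = 4) against 964 ± 11.8 for KO (SD, n = 3), and the log2 fold change was -0.16 (SE 0.0861), and the 95% interval ran from -0.35 to 0.04 (adjusted p = 0.634 in edgeR). Reads could in principle be shared with the placental relatives of *Ctsl* on chromosome 13, but 8 of these summed to 4 to 12 reads per library, against 46522 to 69133 for *Ctsl*. Of 16 genes listed for cysteine cathepsins and cystatins 14 were tested, with a median of 0.02, and 0 were called by edgeR or DESeq2. *Cst8*, a cystatin best known from the reproductive tract, was lower in KO (log2 fold change -1.10, adjusted p = 0.318 in edgeR) and alone passed 0.05 before adjustment. WT replicate 4, at 39.1 CPM, stood apart from the other WT libraries (16.2 to 21.4), and without it the log2 fold change of *Cst8* was -0.72. *Lgmn*, the protease legumain, had a log2 fold change of 0.14 and *Ctss*, cathepsin S, one of 0.23, which was -0.03 without KO replicate 2.

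*Adcyap1* showed no steady direction. Its CPM was 12.8, 30.1, 9.38 and 25.0 in WT replicates 1 to 4 and 19.5, 21.6 and 13.8 in KO replicates 2 to 4. The WT libraries spanned a 3.21-fold range, and all KO libraries lay inside it. The log2 fold change was -0.08 (SE 0.368), with a 95% interval from -0.92 to 0.76, which includes a difference as large as that fitted for *Prkg2* in either direction. It was 0.21 without WT replicate 2, so its sign depends on single libraries. *Adcyap1r1*, the PACAP receptor, was at 27.7 to 32.7 CPM in WT and 25.1 to 34.6 CPM in KO, and its log2 fold change was 0.01 (95% interval from -0.25 to 0.27). *Vipr1* and *Vipr2*, receptors shared with VIP, were under 1 CPM in every library. Of 19 genes listed for PACAP and VIP signalling 17 were tested, with a median of -0.02, and 0 were called by edgeR or DESeq2. *Adcy1*, an adenylate cyclase, alone passed 0.05 before adjustment and was higher in KO (log2 fold change 0.36, unadjusted p = 0.0411, adjusted p = 0.531 in edgeR), at 0.60 with length offsets.

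*Rgcc* was at 39.1, 49.0, 48.7 and 78.0 CPM in WT replicates 1 to 4 and at 65.7, 50.6 and 51.0 CPM in KO replicates 2 to 4. Only WT replicates 1, 2 and 3 were below the lowest KO library, and WT replicate 4 was above all. The log2 fold change was 0.05 (SE 0.212), and the 95% interval ran from -0.43 to 0.53 (adjusted p = 0.964 in edgeR). It was 0.30 without WT replicate 4 and -0.08 without KO replicate 2. Among 20 genes listed as complement components and mitotic kinase partners, all tested, 0 were called by edgeR or DESeq2 and the median was 0.06. *C2*, a complement protease, was lower in KO (log2 fold change -0.34, unadjusted p = 0.0106), and *Cd55*, which restrains complement, was higher (0.30, unadjusted p = 0.0216), with adjusted p of 0.379 and 0.449 in edgeR. Without KO replicate 2 the value of *Cd55* was 0.18 (unadjusted p = 0.109 in edgeR).

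**Figure D3:**
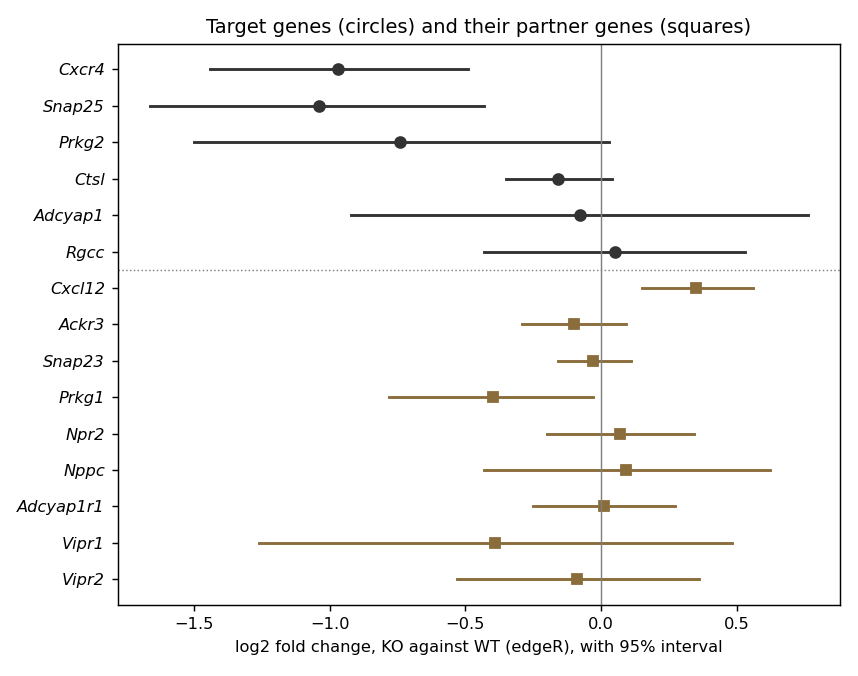
Log2 fold change of KO against WT from edgeR, with its 95% interval, for the 6 target genes (circles) and for partner genes of their pathways (squares). The intervals of *Cxcr4*, *Snap25* and *Prkg1* lie below 0 and that of *Cxcl12* lies above 0 (*Prkg1* was at -0.23 without KO replicate 2), whereas that of *Adcyap1* runs from -0.92 to 0.76.

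Per length, the order of the levels in WT was *Ctsl* (1087 ± 170 TPM, SD, n = 4), *Rgcc* (108.9 ± 36.4), *Cxcr4* (44.7 ± 14.7), *Prkg2* (16.8 ± 8.73), *Adcyap1* (13.3 ± 7.26) and *Snap25* (6.68 ± 2.41). In KO it was *Ctsl* (987.9 ± 92.8 TPM, SD, n = 3), *Rgcc* (115.5 ± 14.6), *Cxcr4* (22.5 ± 0.821), *Adcyap1* (12.9 ± 2.20), *Prkg2* (10.3 ± 2.49) and *Snap25* (3.36 ± 0.858). The TPM ranges of *Prkg2* and *Adcyap1* overlapped in both genotypes, as did those of *Adcyap1* and *Snap25* in WT, while *Ctsl*, *Rgcc* and *Cxcr4* were each apart from their neighbours. *Ctsl* was at percentile 99.4 and *Rgcc* at percentile 93.2 of all genes tested by mean TPM, and *Snap25* was at percentile 42.2.

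Granulosa markers were still plentiful in this granulosa cell-depleted tissue. Their summed level was 3960, 3238, 4095 and 3019 TPM in WT replicates 1 to 4 and 3538, 3681 and 4743 TPM in KO replicates 2 to 4, led by *Inha*, *Gja1* and *Lhcgr*. None of the 15 granulosa markers had an unadjusted p under 0.05 in edgeR, and none was at 0 in any library. WT replicates 2 and 4, with the lowest granulosa sums, had the highest *Cxcr4*, *Prkg2* and *Adcyap1*. The same 2 libraries had the highest sums of the surface epithelium markers, at 128% and 127% of the WT mean against 71.1% and 74% in WT replicates 1 and 3. KO replicates 2 to 4 were at 105%, 73.2% and 80.7%. Of the 7 epithelium markers 6 had negative log2 fold changes (median -0.44), 1 of them, *Upk3b*, at an unadjusted p under 0.05 in edgeR. With the mean of the granulosa markers as a covariate in edgeR, the log2 fold change was -0.77 for *Cxcr4* (adjusted p = 0.10), -0.92 for *Snap25*, -0.42 for *Prkg2* and 0.29 for *Adcyap1*, with none called. In which cells of the tissue the 6 genes were transcribed was not tested.

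**Figure D4:**
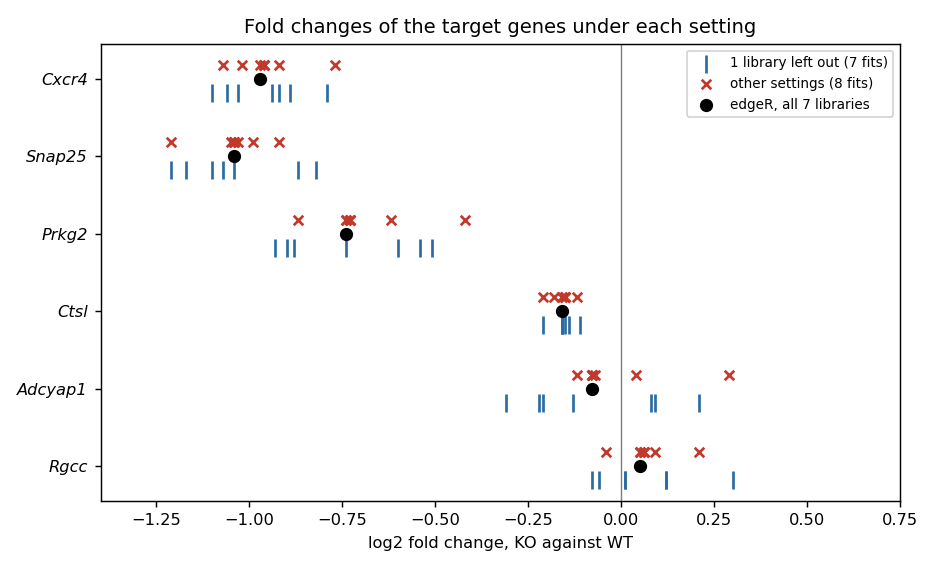
Log2 fold change of the 6 target genes from edgeR on all 7 libraries (black), under the 8 other settings (crosses) and with each of the 7 libraries left out in turn (ticks). *Cxcr4* stays between -1.10 and -0.77 and *Snap25* between -1.21 and -0.82, while *Adcyap1* and *Rgcc* fall on both sides of 0.

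The profiles over the 7 libraries were compared with those of all genes tested by Pearson's r of log2 CPM, as a description over libraries that share genotype and tissue. Closest to *Cxcr4* were *1810019D21Rik* (r = 0.998), *Hsd17b11* (r = 0.989) and *Rras2* (r = 0.985). For *Snap25* they were *Styxl2* (r = 0.983), *Gm14410* (r = 0.981) and *Ptgs1* (r = 0.978). *Styxl2* had only 8 to 16 reads per library, so its r rests on few reads. Those of *Prkg2* were *Baz1a* (r = 0.992), *Pitpnc1* (r = 0.992) and *Dyrk2* (r = 0.988), and those of *Ctsl* were *Spag1* (r = 0.978), *Hsbp1l1* (r = 0.976) and *Riok3* (r = 0.974). *Adcyap1* was most like *Hnrnpll* (r = 0.984), *Frrs1* (r = 0.982) and *Nfib* (r = 0.980), and *Rgcc* most like *Ppfia3* (r = 0.978), *Chchd10* (r = 0.973) and *Psmb7* (r = 0.969). With 7 points high values of r are common, and 206 genes exceeded 0.9 with *Cxcr4*.

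A list of 28 other ovulation genes linked to PGR was set beside the 6. In edgeR 13 of these were lower in KO at an unadjusted p under 0.05 (5.1% of all genes) and 1, *Plau*, was higher (3.84%), and the median log2 fold change was -0.24. Markers of several other cell types were lower beside it. All 7 theca markers had negative log2 fold changes (median -0.24, with 1, *Star*, at an unadjusted p under 0.05), with sums of 9659 to 13350 TPM in WT and 9246 to 10820 TPM in KO, and so had all 8 smooth muscle and pericyte markers (median -0.34, with 5 at this p), whose sums are given above with *Prkg1*. Most markers of surface epithelium (6 of 7, median -0.44), endothelial cells (8 of 9, median -0.12) and fibroblasts (6 of 8, median -0.15) were lower too. Most markers of oocytes (9 of 9), red blood cells (5 of 5), nerve fibres (10 of 11), cumulus cells (3 of 4) and granulosa cells (10 of 15) were higher. The part of all these cells in the list's difference was not tested. Every KO library was below every WT library in 10 of the 28, against 5.12% of all genes. EdgeR and limma-voom called 0 of them, with a lowest adjusted p of 0.141 in edgeR. DESeq2 called 6, against 0.506% of all genes lower in KO: *Zbtb16*, *Mt1*, *Mt2*, *Hsd17b11*, *Scara5* and *Pparg*. *Pparg*, *Cited1*, *Edn2* and *Hsd17b11* are also in the list of stromal genes that the study chose on these same libraries, so their direction is not independent evidence. All 28 genes were listed with earlier results of these data known, so the counts for the whole list are a description too.

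The largest of these differences was in *Zbtb16*, a zinc finger transcription factor that responds to steroid hormones, at 19.2 ± 5.98 CPM for WT (SD, n = 4) against 7.04 ± 1.39 for KO (SD, n = 3). The genotypes thus differed in *Zbtb16* by -1.45 on the log2 scale (SE 0.25), with an adjusted p of 0.16 in edgeR and 4.81e-07 in DESeq2. *Cited1*, a transcription cofactor, had a log2 fold change of -1.29 and *Edn2*, a vasoconstriction factor, one of -0.97 (adjusted p = 0.32 and 0.47 in edgeR). DESeq2 called neither, and the genotypes overlapped in *Edn2*. *Mt2*, a metallothionein that binds zinc, had one of -0.84, *Scara5*, a ferritin receptor, one of -0.80, and *Hsd17b11*, a hydroxysteroid dehydrogenase, one of -0.76. *Cldn1*, a tight junction protein, had the lowest adjusted p of the list in edgeR (0.141), at a log2 fold change of -0.50. DESeq2 gave it an adjusted p of 0.000139 but no call, as the change before rounding was just under the limit of 0.5. *Ptgs2* (-0.02) and *Areg* (0.0), genes that the LH surge induces, are in the same list and were near 0. Other genes of the list that encode signalling proteins were not all near 0. *Ereg* had a log2 fold change of -0.28, *Btc* one of 0.18 and *Il6* one of 1.02 (unadjusted p = 0.0491, 0.3 and 0.0775 in edgeR). All of these are named here after their values were seen.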

How the data were processed

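RNA-seq of ovarian stroma was analysed in 4 WT and 3 KO libraries, grouped by the sample labels. The authors quantified stranded, paired-end 100 bp reads with Salmon against the GENCODE M26 transcriptome on GRCm39 and deposited expected counts per transcript. The deposited files also hold TPM, used here for levels only, and effective lengths, used for length offsets.

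Expected counts were summed to genes with GENCODE M39 on GRCm39, which matched 98.8% of transcripts, and rounded. EdgeR 4.0.16 (R 4.3.3; TMM, filterByExpr, quasi-likelihood test, two-sided, Benjamini-Hochberg over 19233 genes) compared genotypes. Replicates are separate pools of mice, and library pairs correlated at r = 0.992 to 0.997. The common biological coefficient of variation was 0.127. Alternatives were DESeq2 1.42.0 (the study's tool), limma-voom (limma 3.58.1), median-of-ratios size factors, no filter, a minimum of 10 counts per library, length offsets, a replicate block, a granulosa marker covariate and leaving out each library. The code was tested on simulated data. The study's exclusion of granulosa carry-over needs granulosa cell counts, which were not used here.

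Named genes were the 6 target genes, *Pgr*, 9 partner genes, genes called or lowest in p in each list, the 3 genes most alike in profile and leading markers. A marker or list gene outside this rule was named for its p. The target genes and lists were chosen with earlier results of these data known.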

Additional observations from a re-analysis of the deposited data

Results flagged for a closer look

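Of 37 named genes whose 4 WT libraries were examined for 1 library far from the others by Dixon's test, 2 had one, and chance gives about 1 in 20. *Ctss*, the cathepsin S gene of the protease list beside *Ctsl*, was at 18.8 CPM in WT replicate 4 and at 14.5 CPM in each of the other WT libraries. *Cfd*, which encodes complement factor D and is in the list beside *Rgcc*, was at 1.44 CPM in WT replicate 3 and at 0.159, 0.225 and 0.288 CPM in the others. None of the 6 target genes had such a library.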

How the results depend on the processing

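With DESeq2 the number of target genes called went from 0 to 2 (*Cxcr4*, log2 fold change -0.97, and *Snap25*, -1.05), that of called genes in the pathway and ovulation lists from 0 to 7, and *Pgr* passed at -1.72. Without the filter 1 list gene, *Zbtb16*, was called and *Pgr* passed at -1.71, as it did with at least 10 counts in every library (-1.71). Over all genes edgeR called 2, against 143 with DESeq2, 36 without the filter, 6 with at least 10 counts and 23 with the replicate block, and the cause was not tested. The sign of *Adcyap1* turned with limma-voom (0.04) and the granulosa marker covariate (0.29), that of *Rgcc* with the replicate block (-0.04), that of *Adcyap1r1* with length offsets (-0.06) and the block (-0.02), that of *Snap23* with length offsets (0.02) and that of *Nppc* with the covariate (-0.01). The block fit also leaves out WT replicate 1, and without that library alone *Rgcc* was at -0.06 and *Adcyap1r1* at -0.01. None of these genes was called at any setting. Leaving out 1 library at a time gave 0 calls among the target genes and lists and log2 fold changes of -1.10 to -0.79 for *Cxcr4*, -1.21 to -0.82 for *Snap25*, -0.93 to -0.51 for *Prkg2*, -0.21 to -0.11 for *Ctsl*, -0.31 to 0.21 for *Adcyap1*, -0.08 to 0.30 for *Rgcc*, -1.82 to -1.52 for *Pgr*, -0.09 to 0.13 for *Adcyap1r1*, -0.03 to 0.38 for *Ctss*, -0.09 to 0.25 for *Nppc*, -0.03 to 0.15 for *Npr2* and -0.08 to 0.01 for *Snap23*. Libraries with the same replicate number showed little shared deviation over all genes (correlations of -0.013, 0.106 and 0.085). Pairs with different numbers were at -0.131 to 0.098, so the numbers were not taken to pair the libraries. Pairing in single genes was not tested, and the SE of *Prkg2* was 0.148 with the block and 0.281 without WT replicate 1 alone. With the replicate block, on the 6 libraries numbered 2 to 4, 0 target genes were called, and the adjusted p in edgeR was 0.0897 for *Cxcr4* (-1.07), 0.0892 for *Snap25* (-1.21) and 0.119 for *Prkg2* (-0.87). The coefficient of variation between WT libraries was 33.8% for *Snap25*, 46.5% for *Prkg2* and 50.9% for *Adcyap1*.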
